A study of Rattus norvegicus with 11 samples.

Results

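Halofantrine was compared with its solvent DMSO in the degenerating retina at the level of single transcripts, over 31838 transcripts that reached a mean of at least 1 CPM (counts scaled to the library total) in the 9 P23H libraries, of 95472 transcripts in the table. All 9 animals were female hemizygous P23H-1 rats on a cross with Long Evans, and the labels give 4 of them as treated with halofantrine (HAL) and 5 as treated with DMSO. Both eyes were injected into the vitreous with 5 µL in every animal, and the protocol gives a range of 20 to 100 µM for the injected solution without stating the concentration for each rat. The study's methods do not state an age separately for the RNA samples. P23H-1 is a single transgenic line that carries a mutant rhodopsin, so all values refer to this line and to females. Whole retinas were used, so that fewer cells of a type and less RNA per cell cannot be told apart in any value below. The ranges of animal numbers in the labels do not overlap between the treatments, and a cohort that follows these numbers cannot be told apart from treatment. Untreated wild-type retinas (n = 2), whose strain the labels and methods do not state, entered no test. Their values are given only beside single transcripts. Labels of all P23H libraries end in R and those of both wild-type libraries in L, without an explanation of these letters.

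Most genes give rise to several transcripts through alternative promoters, alternative splicing and alternative ends, and photoreceptors are known for exon choices of their own. A gene total adds these transcripts together, so that a change confined to a minor transcript can be invisible in it, and opposite changes of a pair of transcripts can cancel. Halofantrine is a drug developed against malaria. The P23H form of rhodopsin misfolds, and rods that make it degenerate with time.

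Libraries held between 11911877 and 34814612 estimated transcript counts, of which the tested transcripts took 98.9% to 99.4%. DMSO replicate 3 and halofantrine replicate 1 stood apart from the rest, as earlier results of these data had shown. Their log2 CPM over the tested transcripts correlated with those of other libraries at 0.79 to 0.83 for DMSO replicate 3 and at 0.85 to 0.88 for halofantrine replicate 1 with any but DMSO replicate 3, against 0.88 to 0.95 between the remaining libraries of a group and 0.87 to 0.93 between the remaining libraries of different groups, so that the range of halofantrine replicate 1 overlaps the last of these. Each comparison is therefore given with 9 libraries and with 7, without that pair. The identifiers in the files carry no gene symbols, so that markers of retinal and other cell types could not be looked up and transcripts are described by identifier.

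Few transcripts differed beyond the spread between libraries in edgeR, and the number depended on the tool and on single libraries. With 9 libraries, 1 of the 31838 transcripts (0.00314%) passed an adjusted p of 0.05 in the quasi-likelihood test of edgeR, and it was lower with halofantrine. With 7 libraries, 3 transcripts passed (0.00942%), all lower with halofantrine and including the same one. DESeq2 called 66 transcripts with 9 libraries and 211 with 7, and edgeR called 0 to 2 when any 1 of the 9 libraries was left out, with 1017 to 1969 at an unadjusted p under 0.05. Under an unadjusted p under 0.05 with at least a 1.2-fold change, the thresholds the study set for genes but here without its limit on the length of the list, 1546 transcripts (4.86%) passed with 9 libraries, 866 of them higher (2.72%) and 680 lower (2.14%). With 7 libraries 2188 passed (6.87%), 1266 higher (3.98%) and 922 lower (2.9%). An unadjusted p under 0.05 alone was reached by 5.02% of transcripts with 9 libraries and by 7.37% with 7. Of the 1546 and the 2188 transcripts, 774 were shared in the same direction, which is 50.1% of the first list and 35.4% of the second. The balance between higher and lower rested on single animals, since without DMSO replicate 3 the rule gave 1363 higher of 1891, and without DMSO replicate 4 it gave 550 higher of 1194. Levels of the 4 halofantrine libraries lay wholly above those of the 5 DMSO libraries for 296 transcripts (0.93%) and wholly below them for 282 (0.886%), which is 1.82% in either direction. With 7 libraries, 8.43% of transcripts did not overlap between the groups, 1172 higher (3.68%) and 1511 lower (4.75%). These shares depend on group size. Under a random split of the libraries, groups do not overlap with a probability of 0.0159 for 5 against 4 and of 0.0571 for 4 against 3. The 1.82% with 9 libraries thus lay near the share that a random split gives.

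**Figure D1:**
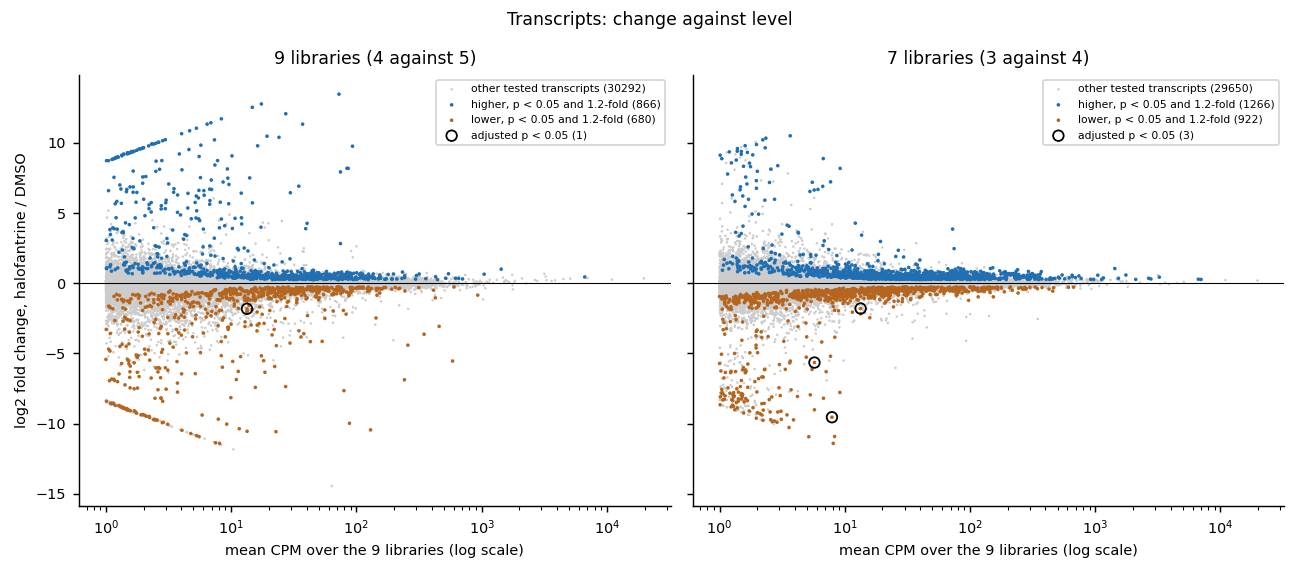
Log2 fold change of each tested transcript, halofantrine over DMSO (y axis), against its mean CPM over the 9 libraries (x axis, log scale), for 9 libraries on the left and 7 on the right. Blue and orange points pass an unadjusted p of 0.05 with a 1.2-fold change, 866 higher and 680 lower on the left and 1266 higher and 922 lower on the right, and the circles mark the 1 and the 3 transcripts with an adjusted p under 0.05.

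The spread between animals was larger for transcripts than for genes. The biological coefficient of variation, the square root of edgeR's common dispersion, was 0.64 over transcripts and 0.28 over the gene table with 9 libraries, and 0.53 and 0.14 with 7. Among transcripts of 1 to 5 CPM, the median SD of log2 CPM within the DMSO group was 0.57, and among those of at least 100 CPM it was 0.23. The share that passed the 1.2-fold rule rose with the level in the 7 libraries, from 4.22% of transcripts of 1 to 5 CPM to 14.0% of those of at least 100 CPM. With 9 libraries these shares were 3.60% and 5.66%.

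The deposited gene table made it possible to say which transcripts belong to the same gene, because a gene's estimated counts equalled the sum of a run of neighbouring transcripts in all 11 libraries. Of the tested transcripts, 21905 were one of several tested transcripts of a gene, 4542 were the only tested transcript of a gene, and 5391 were outside the genes matched in this way. Transcripts that stood alone in their gene passed the 1.2-fold rule in 344 cases (7.57%) with 9 libraries and in 550 cases (12.1%) with 7, and most of these were higher with halofantrine, 261 and 469. Transcripts with partners in the same gene passed in 928 cases (4.24%) and 1449 cases (6.61%), and were divided nearly evenly between higher and lower, at 435 and 493 with 9 libraries and 750 and 699 with 7. The classes differed in level and in spread, with a median of 29.1 CPM and a median within-DMSO SD of 0.24 for transcripts that stood alone and of 10.6 CPM and 0.41 for those with partners. Among transcripts of at least 20 CPM, where the medians were 48.6 and 43.7 CPM, the shares past the rule were 14.1% for those that stood alone and 8.33% for those with partners in the 7 libraries. At this level, 374 were higher and 36 lower among those that stood alone, and 366 and 259 among those with partners. With 9 libraries these were 198 and 48, and 180 and 216. The division of transcripts with partners thus varied with level and libraries.

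**Figure D2:**
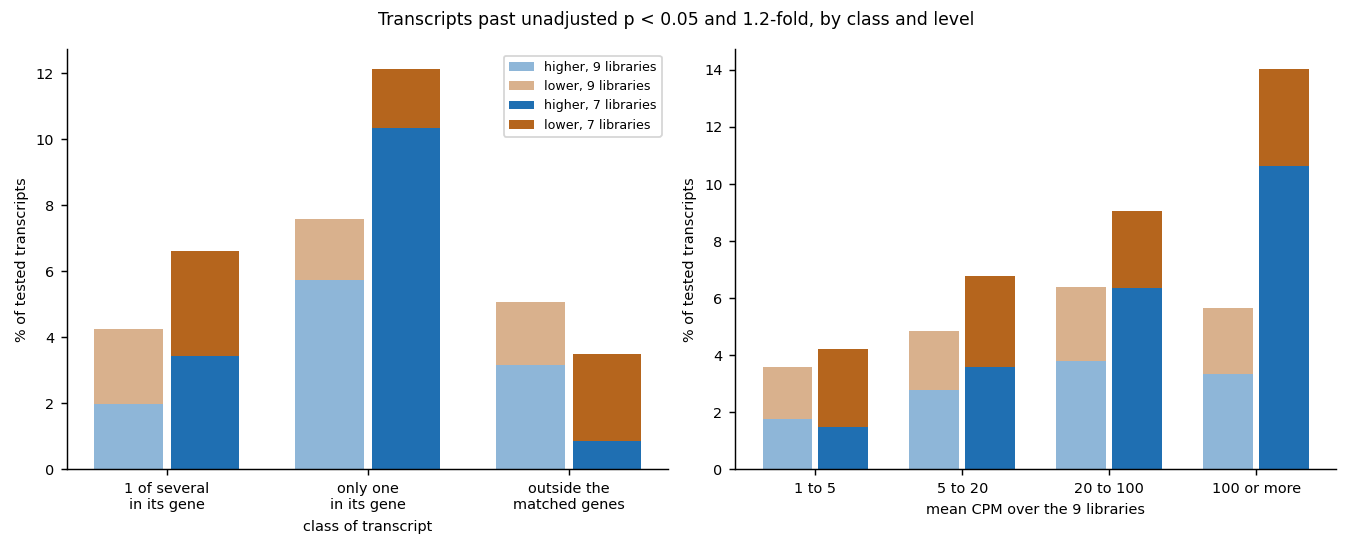
Percentage of tested transcripts past an unadjusted p of 0.05 and a 1.2-fold change (y axis), by class of transcript on the left and by mean CPM on the right. Blue parts are higher and orange parts lower with halofantrine, pale bars 9 libraries and full bars 7, and the tallest bar on the left is the 12.1% of transcripts that are the only one tested in their gene.

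Transcripts outside the matched genes were mostly rare, with a median of 2.10 CPM. Under the 1.2-fold rule 5.08% of them passed with 9 libraries, 170 higher and 104 lower with halofantrine, and 3.51% passed with 7, 47 higher and 142 lower. In 149 of the 170 that were higher with 9 libraries, halofantrine replicate 1 held the highest value of all 9 libraries, and 21 passed with 7 libraries. The 20 such transcripts of at least 20 CPM all had their highest value in DMSO replicate 3 or in halofantrine replicate 1. Their summed level was 6040 CPM in halofantrine replicate 1 and 1740 CPM in DMSO replicate 3, against 113 to 303 CPM in the remaining libraries.

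The transcript that fell in both fits was ENSRNOT00000149365.1, one of 2 tested transcripts of the gene ENSRNOG00000019077. In the DMSO libraries it stood at 17.7, 18.5, 20.7, 19.8 and 21.8 CPM, and in the halofantrine libraries at 5.80, 6.0, 5.12 and 5.37 CPM. Every halofantrine library lay far below every DMSO library, the outlying libraries included. It fell by 1.82 ± 0.14 (SE) on the log2 scale with 9 libraries (edgeR, adjusted p = 0.00925) and by 1.80 ± 0.14 with 7 (adjusted p = 0.0394). Wild-type retinas held 6.66 and 5.46 CPM. The call with 9 libraries was lost when DMSO replicate 2, 4 or 5 or halofantrine replicate 2, 3 or 4 was left out, with adjusted p-values of 0.0559, 0.0938, 0.0728, 0.0689, 0.0842 and 0.0911, while the log2 change stayed between -1.86 and -1.78. With 7 libraries it was lost whenever a further library was left out (edgeR, adjusted p = 0.0762 to 0.254). In limma-voom with 7 libraries the adjusted p was 0.137. Its partner ENSRNOT00000078279.3, at 86.8 to 150.2 CPM with DMSO and 58.7 to 74.7 CPM with halofantrine, had a log2 change of -0.67 ± 0.18 (edgeR, unadjusted p = 0.00517, adjusted p = 0.923).

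Within that gene, the share of ENSRNOT00000149365.1 in the summed CPM of the tested transcripts was 12.1% to 19.4% with DMSO and 6.46% to 8.39% with halofantrine. The shares did not overlap between groups, and the mean difference was -8.21 percentage points (exact two-sided permutation test over the 9 libraries, p = 0.0159, the smallest that 5 against 4 libraries allow). As the transcript was picked for its p and for levels that do not overlap, this test is not independent of the choice. The share was 13.6% and 11.2% in wild type, where both transcripts were lower than with DMSO. The gene total had a log2 change of -0.79 with 9 libraries (edgeR on the gene table, unadjusted p = 0.000686, adjusted p = 0.60).

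The higher transcript with the smallest p, ENSRNOT00000041892.4, was the only one tested in ENSRNOG00000031706. It stood at 9.93, 12.5, 14.3, 15.9 and 19.5 CPM with DMSO and at 36.5, 42.4, 57.4 and 57.1 CPM with halofantrine, with no overlap, and at 32.2 and 35.5 CPM in wild type. The log2 change was 1.74 ± 0.22 with 9 libraries and 1.87 ± 0.24 with 7, which did not pass over all transcripts (edgeR, adjusted p = 0.222 and 0.342).

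Another kind of difference was a transcript found in all libraries of one group and in none of the other. With 9 libraries, 1 of the 31838 tested transcripts had 0 counts in every DMSO library and at least 1 CPM in every halofantrine library. The converse held for 3. Such transcripts passed the filter on mean level only through the group that held them. That filter asked a higher level of the 4 halofantrine than of the 5 DMSO libraries, so these counts are not on equal terms. The number under a random split was not computed. None of the 4 passed an adjusted p of 0.05 in edgeR on rounded counts (0.138 to 0.602), although their unadjusted p-values lay between 8.70e-06 and 0.000113. Both that are described next passed in edgeR on unrounded counts (adjusted p = 0.00304 for each) and in DESeq2. Neither passed in limma-voom (adjusted p = 0.944 for each) or with sample weights (0.484 and 0.514). In edgeR on rounded counts, neither passed when any single library was left out. ENSRNOT00000150571.1 of ENSRNOG00000048718 had 0 counts in the 5 DMSO and both wild-type libraries after rounding, and 1.32, 5.26, 2.5 and 3.49 CPM with halofantrine, from 42, 134, 42 and 52 counts. Against a floor of 3 counts over the DMSO group (0.0249 CPM), its level with halofantrine was at least 122-fold higher. ENSRNOT00000154197.1 of ENSRNOG00000033556 had 7.65, 2.92, 4.19, 3.69 and 4.56 CPM with DMSO and 0 counts in the 4 halofantrine and both wild-type libraries. A floor of 3 counts over the halofantrine group is 0.0338 CPM, against 4.25 CPM for the summed counts of the DMSO group.

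These transcripts were small parts of genes whose totals barely differed. ENSRNOT00000150571.1 took 4.76% to 13.7% of ENSRNOG00000048718 with halofantrine, and ENSRNOT00000154197.1 took 2.04% to 4.27% of ENSRNOG00000033556 with DMSO. The gene totals had log2 changes of -0.14 and -0.17, with unadjusted p-values of 0.216 and 0.332 in edgeR. The other pair at 0 with halofantrine, named here after their values were seen, were ENSRNOT00000097356.2 of ENSRNOG00000011211, at 2.21 to 10.3 CPM with DMSO, and ENSRNOT00000057404.7 of ENSRNOG00000004752, at 1.55 to 4.09 CPM. With 7 libraries, 3 transcripts were present with halofantrine alone and 12 with DMSO alone. These counts are not on equal terms, since absence had to hold in 3 halofantrine libraries but in 4 DMSO libraries. The filter on mean level, described above, also bears unequally on the groups. Halofantrine replicates 3 and 4 also had 1768 and 1940 tested transcripts at 0, against 799 to 1808 in the DMSO libraries used. Of these 15, 14 were one of several tested transcripts of a gene, as were 21905 of all 31838 tested.

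In the 7 libraries the 2 higher transcripts with the smallest p were absent from halofantrine replicate 1. ENSRNOT00000040329.7, the only tested transcript of ENSRNOG00000030058, stood at 13.9, 25.0 and 21.5 CPM in halofantrine replicates 2, 3 and 4, at 0 in replicate 1, and at 0 to 0.579 CPM with DMSO. Wild-type retinas held 27.5 and 49.7 CPM. Its log2 change was 8.89 ± 0.86 with 7 libraries (edgeR, unadjusted p = 1.80e-05, adjusted p = 0.143), and with 9 libraries the unadjusted p was 0.00449. ENSRNOT00000120544.2, which belongs to none of the matched genes, had 5.14, 8.34 and 6.18 CPM in halofantrine replicates 2, 3 and 4, 0 in replicate 1, 0.482 CPM in DMSO replicate 3 and 0 in the other DMSO libraries. Over the 7 libraries it was at least 211-fold higher than a floor of 3 counts in the DMSO group (adjusted p = 0.339). Wild-type retinas held 4.22 and 4.12 CPM.

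The 2 lower ones passed with 7 libraries and not with 9. ENSRNOT00000136507.1, one of 6 tested transcripts of ENSRNOG00000011697, had 11.4, 10.6, 4.24, 8.44 and 8.59 CPM with DMSO and 7.16, 0.235, 0.179 and 0.134 CPM with halofantrine. Halofantrine replicate 1 lay within the DMSO range and the other 3 halofantrine libraries near 0. The log2 change was -5.65 ± 0.31 with 7 libraries (edgeR, adjusted p = 0.0123) and -2.14 ± 1.16 with 9 (adjusted p = 0.924), and wild type held 0.357 and 6.72 CPM. ENSRNOT00000143993.1, one of 9 tested transcripts of ENSRNOG00000037658, had 15.5, 17.4, 13.2 and 24.4 CPM in DMSO replicates 1, 2, 4 and 5 and 0.0482 CPM in DMSO replicate 3. It had a single count in the halofantrine group, in replicate 3, and none in wild type. Over the 7 libraries its level was 1019-fold lower with halofantrine, with an exact 95% counting interval of 183 to 40273. That interval pools the animals and leaves out the spread between them, and its single halofantrine count was an estimate of 0.52 before rounding. The adjusted p in edgeR was 0.0367 with 7 libraries and 0.923 with 9. Leaving out a further library took ENSRNOT00000143993.1 past 0.05 in every case (adjusted p = 0.0536 to 0.254) and ENSRNOT00000136507.1 in 6 of 7 cases (0.0341 to 0.125, below 0.05 without halofantrine replicate 2).

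**Figure D3:**
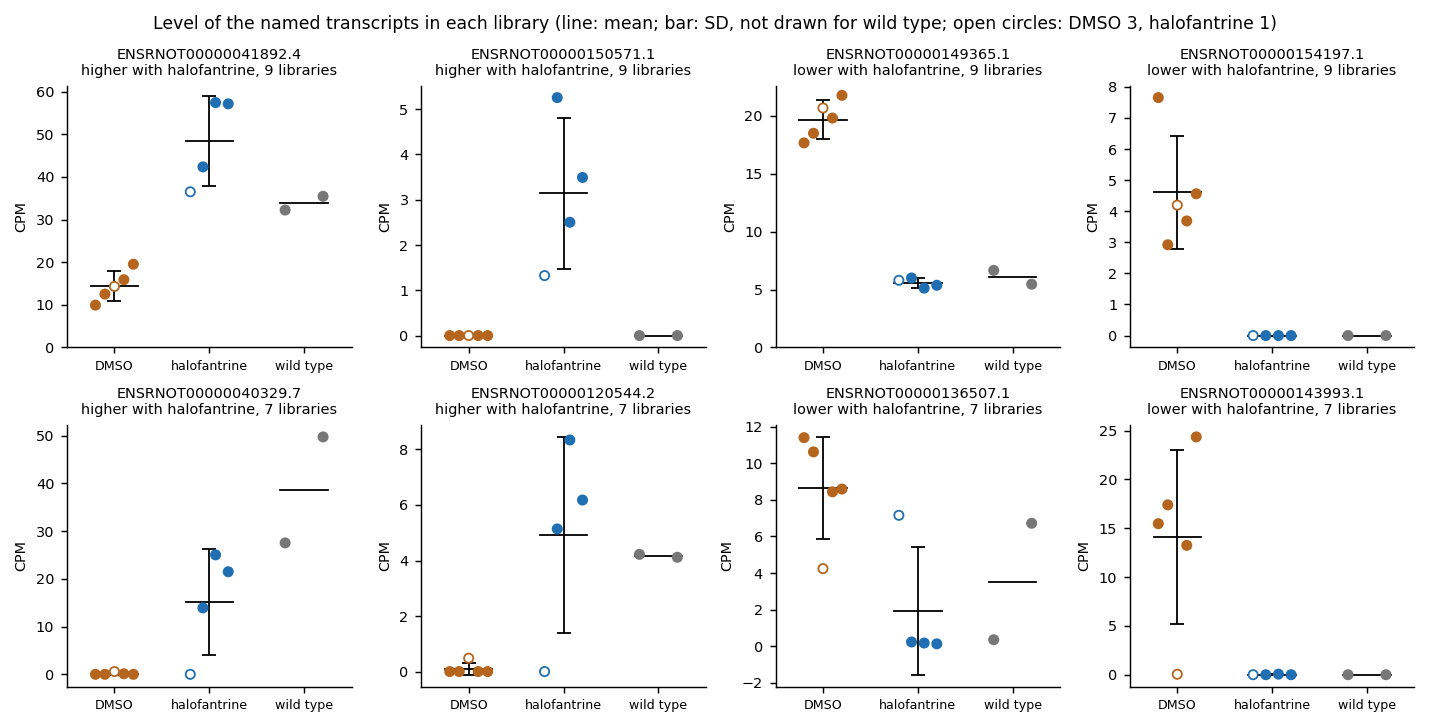
CPM (y axis) of the 8 transcripts chosen by the smallest p in the 9-library fit (upper row) and the 7-library fit (lower row) in each DMSO, halofantrine and wild-type library. Lines are means and bars SDs, open circles mark DMSO replicate 3 and halofantrine replicate 1, and in the third upper panel all 4 halofantrine libraries lie at 5.12 to 6.0 CPM below the DMSO libraries at 17.7 to 21.8 CPM.

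Among transcripts with partners, most of those past the rule belonged to a gene whose total did not pass it, while those that stood alone are nearly the gene total itself. Of the 928 transcripts with partners that passed the rule with 9 libraries, 316 (34.1%) belonged to a gene whose total also passed in that direction, and 487 (52.5%) belonged to a gene whose total lay within 1.2-fold. With 7 libraries these were 494 of 1449 (34.1%) and 887 (61.2%). Over the gene table, 7.1% of totals passed the same rule with 9 libraries and 12.2% with 7. The median size of the transcripts' log2 changes was 0.67 with 9 libraries, while the median log2 change of their gene totals in the same direction was 0.25. Of 855 genes with a transcript past the rule, 65 had 2 or more, and in 16 of these the transcripts went in opposite directions; with 7 libraries 75 of 155 such genes did so.

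**Figure D4:**
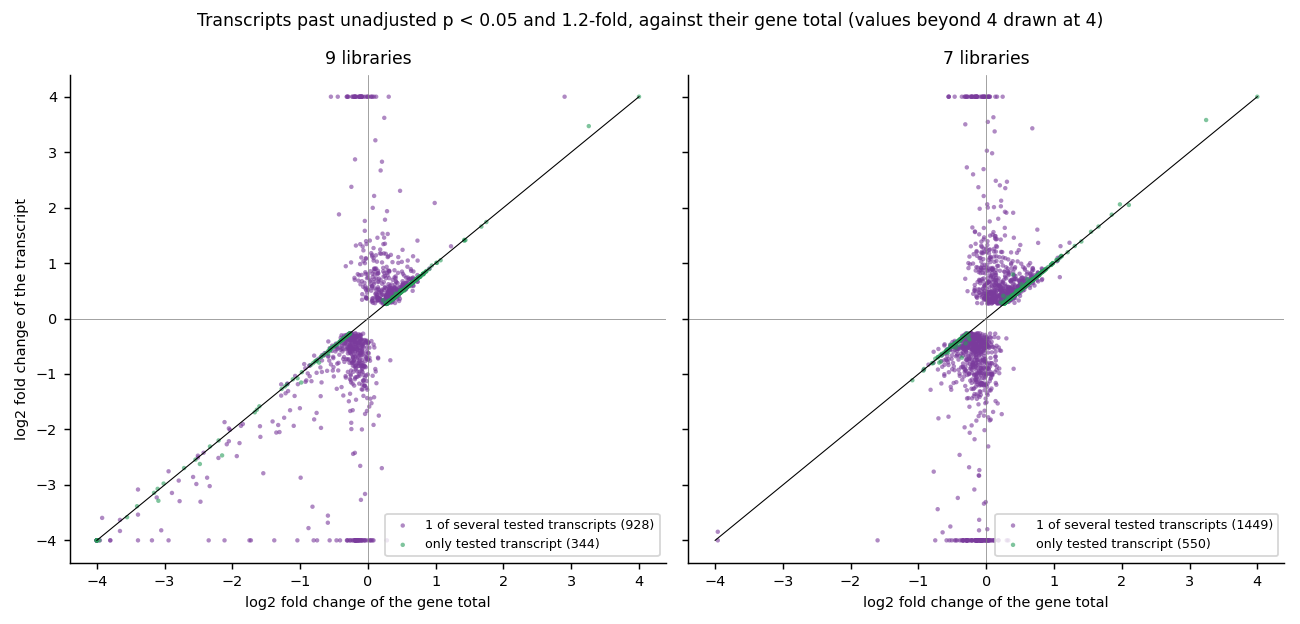
Log2 fold change of each transcript past an unadjusted p of 0.05 and 1.2-fold (y axis) against that of its gene total (x axis), with values beyond 4 drawn at 4 and the diagonal marking equal change. Green points, the only tested transcript of a gene, lie on the diagonal, and many of the 928 purple points on the left and 1449 on the right, transcripts with partners, lie off it near a gene total of 0.

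Whether transcripts of a gene changed unequally was then tested over 7481 genes with 2 or more tested transcripts. With 9 libraries, edgeR's usage test called 8 genes at an adjusted p of 0.05 (0.107%, with 4.26% at an unadjusted p of 0.05) and limma's usage test on the same transcripts called 1 (0.0134%, with 5.0% at an unadjusted p of 0.05). With 7 libraries edgeR called 18 (0.241%, with 8.41% at an unadjusted p of 0.05), of which 3 were among the earlier 8, and limma called 0 genes, with 551 at an unadjusted p of 0.05. On simulated counts the usage test of edgeR made more false calls than its threshold allows, so that those of limma are given beside them for 9 and for 7 libraries, and were not computed for other settings. The simulation drew the counts of each transcript independently, so the sharing of reads among transcripts was not part of it. In all of the 8 genes, the transcript with the smallest p took under 10% of the gene (0.978% to 4.57%) and was at 0 in at least 1 library. Among the 18 genes called with 7 libraries, this transcript took under 10% in 12 (1.35% to 21.7% over all 18). It was at 0 in at least 1 library in 15. When transcripts under 10% of their gene were left out, edgeR called 0 of 6036 genes with 9 libraries, with 240 at an unadjusted p of 0.05. This was not repeated with 7 libraries.

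The gene that limma called, ENSRNOG00000015290, is described although its values were seen first. Its minor transcript ENSRNOT00000071439.3 stood at 60.7, 21.6, 6.32, 6.08 and 5.75 CPM with DMSO and at 184.1, 170.1, 104.4 and 106.6 CPM with halofantrine. The groups did not overlap, and the minor transcript made up 0.723% to 10.5% of the gene with DMSO and 11.7% to 29.1% with halofantrine. In wild type it made up 26.5% and 28.9%. The limma usage test gave an adjusted p of 0.0148 with 9 libraries and 0.0969 with 7, and edgeR's gave 0.127 and 0.318. The major transcript ENSRNOT00000020647.8 averaged 656.1 ± 98.6 CPM (SD, n = 5) with DMSO and 635.2 ± 177.2 CPM (SD, n = 4) with halofantrine, and the gene total had a log2 change of 0.21 (edgeR, unadjusted p = 0.174).

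ENSRNOG00000037658, called by edgeR in both fits (adjusted p = 1.83e-05 with 9 libraries and 4.51e-07 with 7) and not by limma (1.00 and 0.0706), held several transcripts that moved apart. Beside ENSRNOT00000143993.1, ENSRNOT00000160966.1 had 20.1 to 27.7 CPM in DMSO replicates 1, 2, 4 and 5, 2.56 CPM in DMSO replicate 3 and 3.92 to 6.31 CPM with halofantrine. ENSRNOT00000100404.2 went the other way, at 21.4 to 39.1 CPM with DMSO and 41.1 to 68.8 CPM with halofantrine (log2 change 0.67 ± 0.21, unadjusted p = 0.00972 in edgeR). The gene total had a log2 change of -0.09 with 9 libraries.

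**Figure D5:**
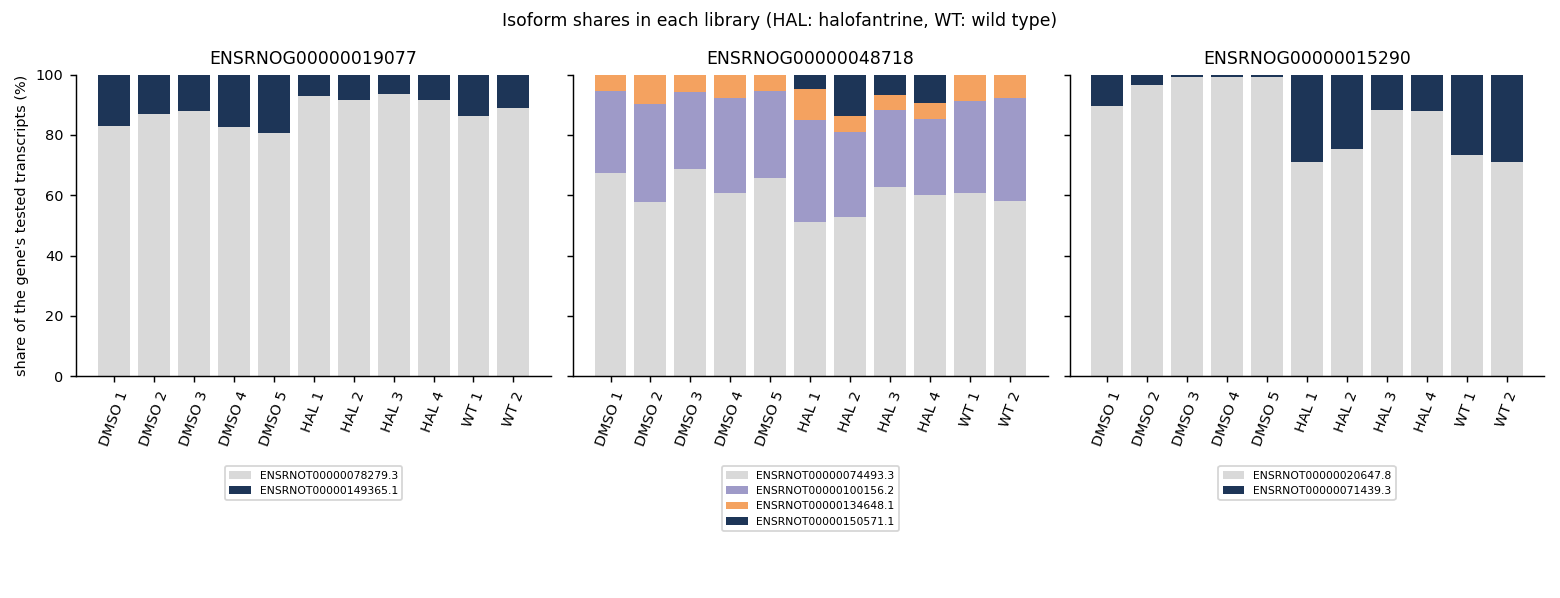
Share of each tested transcript in the summed CPM of its gene (y axis, percent) in each DMSO (1 to 5), halofantrine (HAL 1 to 4) and wild-type (WT 1 and 2) library for ENSRNOG00000019077, ENSRNOG00000048718 and ENSRNOG00000015290. The dark part is the transcript described in the text: 12.1% to 19.4% with DMSO and 6.46% to 8.39% with halofantrine on the left, absent with DMSO in the middle, and up to 10.5% with DMSO and at least 11.7% with halofantrine on the right.

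The most abundant transcript of a gene followed treatment in every library in few of the genes tested. It was the same in all 9 libraries in 5012 of the 7481 genes (67.0%) and in all 7 in 5316 (71.1%). In 5 of the 7481 genes, 1 transcript was the most abundant in all 5 DMSO libraries and another in all 4 halofantrine libraries. With 7 libraries this held for 19 of them. The numbers that a random split would give were not computed. The 5 were ENSRNOG00000013938, ENSRNOG00000014137, ENSRNOG00000051548, ENSRNOG00000056703 and ENSRNOG00000060750, and as they were picked by this pattern no test of their shares is given. In ENSRNOG00000013938, ENSRNOT00000018931.7 held 84.2% ± 16.4 (SD, n = 5) of the gene with DMSO and 45.3% ± 3.2 (SD, n = 4) with halofantrine, while the total was 10.2 and 10.3 CPM. In ENSRNOG00000060750, ENSRNOT00000164250.1 held 55.6% ± 5.1 with DMSO and 43.0% ± 5.5 with halofantrine, at totals of 44.8 and 37.6 CPM. In ENSRNOG00000014137 the mean total was 65.8 CPM with DMSO and 9.58 CPM with halofantrine. Its log2 change of -2.78 had an unadjusted p of only 0.0488 (edgeR on the gene table). In this gene, ENSRNOG00000051548 and ENSRNOG00000056703, the leading transcript of the DMSO libraries averaged between 54.4% and 56.9% of the gene with DMSO and between 39.4% and 43.1% with halofantrine. In all but ENSRNOG00000013938, these mean shares thus lay between 39.4% and 56.9%. Single libraries ranged more widely, from 23.8% with halofantrine in ENSRNOG00000056703 to 62.7% with DMSO in ENSRNOG00000060750.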

How the data were processed

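Retinal RNA of 11 female rats was sequenced from strand-specific polyadenylated libraries, 1 library per animal; groups came from the labels. The authors aligned reads to the Ensembl rat transcriptome with kallisto, which divides reads among transcripts that share sequence, and imported them with tximport. The transcript and gene tables deposited by the authors hold estimated counts, unscaled; tool versions were not given in the sources used here. A deposited table of scaled values and the authors' table of gene fold changes and p-values were not used.

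Estimated counts were rounded to whole numbers. Transcripts with a mean of at least 1 CPM (by column sums) in the 9 P23H libraries were tested by quasi-likelihood in edgeR 4.0.16 (R 4.3.3) with TMM factors, P23H libraries only, and Benjamini-Hochberg adjustment over all transcripts tested (threshold 0.05). CPM values are scaled by TMM factors, and log2 CPM used an offset of 0.5. Factors of the P23H libraries were fitted over those 9, and factors of wild type over all 11 libraries. The 7-library fit kept the same transcripts. Transcripts were assigned to a gene where its counts equalled the sum of 1 run of neighbouring transcripts in all 11 libraries within 0.001 counts (12028 of 12037 genes, 33087 transcripts). Isoform usage was tested with diffSpliceDGE of edgeR and diffSplice of limma 3.58.1, and shares by exact permutation. Transcripts named were the 2 higher and 2 lower with the smallest p in each fit among those whose groups do not overlap. No library was a copy of another (chi-square over degrees of freedom of at least 21.4 for any pair). Counting intervals and floors cover counting error only, and p-values the spread between these libraries, 1 per animal. Fits were tested on simulated counts. Alternatives were other scalings, filters, DESeq2 1.42.0, limma-voom, and libraries left out.

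The members, lists and the outlying libraries were chosen with earlier results of these data known. Gene lists and cell type markers fixed by symbol were not analysed here, because 0 entries of the reference table used carry an Ensembl identifier; sequences are not shown for the same reason.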

Additional observations from a re-analysis of the deposited data

Results flagged for a closer look

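Groups were searched for a library far from its fellows in 24 cases (4 measures of the libraries and the levels of the 8 described transcripts, in each of the DMSO and halofantrine groups), and 6 were found. Chance gives about 1 in 20 for a measure not picked by its values, which does not apply to the transcripts, since those of the 7-library fit were chosen with DMSO replicate 3 and halofantrine replicate 1 left out. The share of counts in transcripts outside the gene table was 3.41% in DMSO replicate 3, where the remaining DMSO libraries held 1.71% to 1.90%, and 3.79% in halofantrine replicate 1, against 1.58% to 1.70%. ENSRNOT00000040329.7 stood at 0.579 CPM and ENSRNOT00000120544.2 at 0.482 CPM in DMSO replicate 3, with at most 0.115 CPM and 0 in the other DMSO libraries. ENSRNOT00000136507.1 stood at 7.16 CPM in halofantrine replicate 1, with at most 0.235 CPM in the others. ENSRNOT00000143993.1 stood at 0.0596 CPM in halofantrine replicate 3, which is a single count, and at 0 in the others.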

How the results depend on the processing

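The 8 transcripts with the smallest p among those whose groups do not overlap, 2 higher and 2 lower per fit, were refitted under the alternatives. No direction turned, but because of that choice a turn on leaving out a library of the same fit was hardly possible. The exact permutation p of a share cannot go below 0.0571 with 7 libraries. With 9 libraries, the number of transcripts at an adjusted p under 0.05 was 1 in edgeR and 3 with unrounded counts, 66 with DESeq2, 3 without both outlying libraries and 0 to 2 with 1 library left out (with 1017 to 1969 at an unadjusted p under 0.05); RLE factors, column sums, the other filters, robust dispersions, both limma-voom fits and all 11 libraries gave 1. Transcripts past the 1.2-fold rule numbered 3302 (1739 higher) without a filter on level, 2624 (1600 higher) with sample weights, 911 at 1.5-fold, and 1006 to 1908 (550 to 1363 higher) with 1 library left out. With 7 libraries, the 3 calls became 211 with DESeq2, 0 with limma-voom (2172 at an unadjusted p under 0.05), 1 with 9 libraries in the fit, and 0 to 5 with a further library left out (1204 to 4243 at an unadjusted p under 0.05), and the rule then gave 1169 to 4112 transcripts (403 to 2104 higher). The lowest count of higher transcripts, 403 of 1169, came without halofantrine replicate 4, and the highest, 2104 of 4112, without halofantrine replicate 2. Genes called for isoform usage numbered 8 in edgeR, 1 with limma, 1 at 5 CPM, 0 without transcripts under 10% of their gene, 18 with 7 libraries and 3 to 26 with 1 library left out, 3 without DMSO replicate 5 and 26 without halofantrine replicate 3. The fit of limma with 7 libraries (0 genes) was chosen after seeing the data. The cause of these differences was not tested.

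No paired analysis was possible because the labels give the animals of each group their own numbers and no replicate number shared between groups. Transcripts of 1 to 5 CPM rest on few counts: among all tested, 799 to 1940 transcripts were at 0 in a given library, and a difference under the spread was not detectable at this depth.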
